A study of Rattus norvegicus with 18 samples.

Results

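The 18 kidney arrays of this study differed widely in the signal of Slc5a2, the sodium-glucose carrier of the early proximal tubule, and were sorted by it. The sets were chosen by the deposited log2 signal of the brightest probe set that names only this gene. Of 18 arrays 6 lay below 13 (Slc5a2-low), 9 lay at 14 or above (Slc5a2-high) and 3 lay between. The arrays hold kidney RNA of Sprague-Dawley (SD) rats, hybridized to Affymetrix expression arrays in 6 groups of 3 biological replicates. The groups were normal saline and cadmium chloride (CdCl2) at 1 day, 6 weeks and 12 weeks. Dose, route, sex, age and the portion of the kidney taken are not given in the labels, and whether each piece held the same parts of the organ is not recorded. Each value is a log2 signal. A difference of 1 need not be a doubling, because the sources used here give no summarization method and signals stop at 19.93. Precision is limited by the small number of arrays.

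The proximal tubule reclaims most of what the glomerulus filters. Its convoluted part, in the cortex, takes up glucose through Slc5a2 with high capacity and carries most of the machinery for amino acids, phosphate, bicarbonate and filtered protein. Its straight part runs down into the outer medulla and carries other transporters, so a piece of kidney with little cortex has less convoluted tubule. Cadmium collects in proximal tubule cells and can injure them. In RNA of whole tissue, fewer cells of a type and less RNA per cell cannot be told apart.

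Slc5a2 spanned 7.56 to 16.24 and ran through the range without a wide gap at the limits chosen. The low arrays were cadmium 12 weeks replicate 3 at 7.56, saline 12 weeks replicate 1 at 9.88 and cadmium 1 day replicate 3 at 11.14. They also held cadmium 12 weeks replicate 1 at 11.82, cadmium 6 weeks replicate 2 at 12.01 and saline 1 day replicate 2 at 12.39. Both treatments and all 3 times thus stood among them. The arrays between were saline 6 weeks replicate 3 at 13.10, cadmium 12 weeks replicate 2 at 13.20 and saline 1 day replicate 3 at 13.73. The lowest of the high arrays was cadmium 6 weeks replicate 3 at 14.40. The highest were saline 1 day replicate 1 at 16.02 and cadmium 1 day replicate 2 at 16.24.

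Treatment and time are confounded with the sorting in part. Cadmium gave 4 of its 9 arrays to the low set and saline 2 of 9. At 12 weeks 3 of 6 arrays were low, at 1 day 2 of 6 and at 6 weeks 1 of 6. No array of cadmium at 12 weeks was high, and no array of saline at 6 weeks was low. In limma, fitted to all 22084 genes, Slc5a2 passed in none of the labelled contrasts. Its largest was cadmium minus saline at 12 weeks, with means of 10.86 ± 2.94 (SD, n = 3) and 13.22 ± 2.90, a difference of -2.36 (SE 1.70, limma adjusted p = 0.723). Of the variation of Slc5a2 over the arrays, 71.0% lay within groups. The other 4 groups held both low and high arrays, and the comparison below is made within them: low minus high arrays of the same group, averaged over cadmium 1 day, cadmium 6 weeks, saline 1 day and saline 12 weeks. In saline at 1 day this rests on 1 array against 1. Slc5a2 chose the arrays, and every gene was read from the same arrays, so these differences are a description and carry no test.

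**Figure D1:**
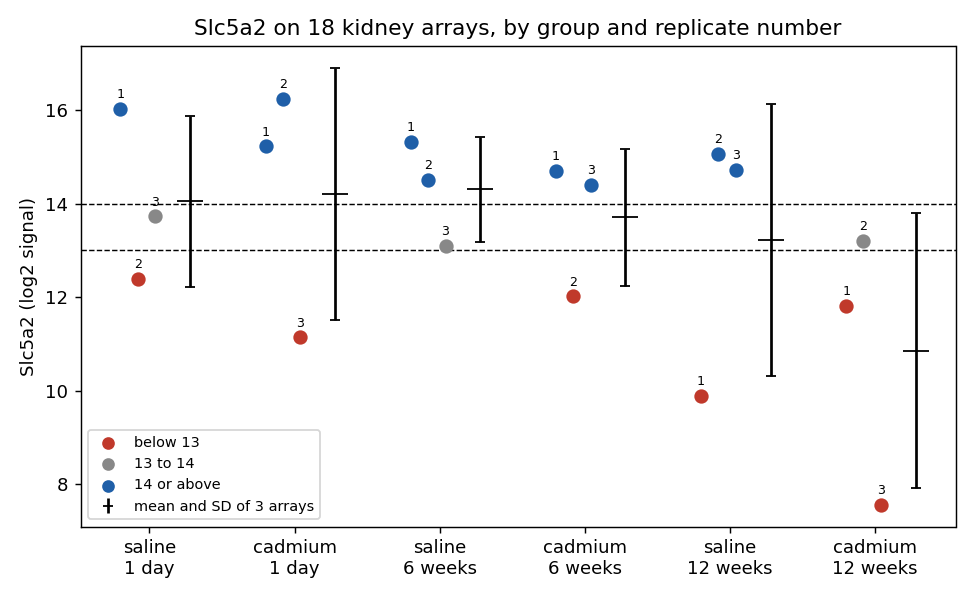
Slc5a2 log2 signal (vertical axis) of the 18 arrays by group (horizontal axis), each point 1 array with its replicate number, dashed lines at 13 and 14, bars the mean and SD of 3 arrays. Low arrays stand in 5 of the 6 groups, and the lowest, at 7.56, belongs to cadmium at 12 weeks.

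Promoters are shown for genes that separated the arrays, because the transcription factor HNF1 is known in the mouse to drive Slc5a2 and many other genes of the proximal tubule. The windows are RefSeq's (GRCr8), 250 bases before to 50 after the gene start. They were searched on both strands for the 13-base palindrome bound by HNF1, which reads GTTAAT, any base, ATTAAC, and the capitals mark the closest match. Slc5a2 lies at chr1:192277371-192277670 (plus strand), Slc5a12 at chr3:117633637-117633936 (plus strand), and their windows read:
Slc5a2: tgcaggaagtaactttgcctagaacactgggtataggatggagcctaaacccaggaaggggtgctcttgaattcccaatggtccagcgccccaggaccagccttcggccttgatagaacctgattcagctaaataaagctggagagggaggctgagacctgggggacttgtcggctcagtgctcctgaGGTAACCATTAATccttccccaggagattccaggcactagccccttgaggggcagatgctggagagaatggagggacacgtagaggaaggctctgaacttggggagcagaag
Slc5a12: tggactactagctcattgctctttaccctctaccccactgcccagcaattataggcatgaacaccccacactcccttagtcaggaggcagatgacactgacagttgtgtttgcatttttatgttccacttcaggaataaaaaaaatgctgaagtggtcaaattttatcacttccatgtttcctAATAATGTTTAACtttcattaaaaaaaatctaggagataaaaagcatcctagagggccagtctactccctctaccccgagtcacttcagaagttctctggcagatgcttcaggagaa

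Both matches differ from the palindrome at 3 letters and begin 62 bases (Slc5a2) and 67 bases (Slc5a12) before the gene start. Closer matches stood in other promoters of genes lower in the low arrays, shown here with the gene they belong to (names chosen after the values were seen):
Cltrn: GTTAATTATTAAA
F13b: GGTAATTATTAAC
C5: ATTAATAATTAAC
Ddc: ATTAATGTTTAAC
Slc7a9: TTTAATAATTACC
Cltrn (collectrin, which holds amino acid carriers at the brush border), F13b (a subunit of clotting factor XIII) and C5 (a complement component) each differ from the palindrome at 1 letter. Ddc, which makes dopamine in the proximal tubule, and Slc7a9, the cystine carrier, differ at 2. Of 219 promoters of genes lower without overlap, 12 held a match with at most 2 differing letters (5.48%), against 214 of all 17119 promoters (1.25%) and 1.17% of those of genes above background. Among genes higher without overlap it was 1 of 58 (1.72%). With 3 differing letters allowed the shares were 13.7%, 7.44%, 5.45% and 3.45%. The 219 include Slc5a2 itself, whose match differs at 3 letters. The 12 include the related genes Spink1 and Spink1l, both on chromosome 18, which hold the same match and may not be independent. Slc4a4 and Slc6a19, which follow Slc5a2 most closely below, had no match within 3 letters. The direct repeat of AGGTCA with an A between is bound by HNF4, another factor of this tubule. It stood within 3 letters in 12.3% of the lower genes' promoters and 8.23% of all. A short HNF4 form, CAAAGTCCA, stood without a differing letter in 0.457% of the lower genes' promoters and 0.432% of all, near the background. Within 1 letter it stood in 10% and 7.82%. The limits on differing letters were chosen after the data were seen. A match is a stretch of letters and not a measured binding site.

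Across 22084 genes, 276 (1.25%) were lower in all 6 low arrays than in any of the 9 high ones, and 75 (0.34%) were higher without overlap. Of the lower genes 274 had a mean above the background level of 4.22, and of the higher ones 72. The lower genes differed more, with a median within-group difference of -0.92 against 0.41 for the higher ones, and 128 were lower by more than 1 against 4 higher by more than 1. The median over all genes was 0.01. Solute carriers, genes named Slc, made up 24 of the 276 lower genes (8.7%) and 370 of all genes (1.68%), and 0 of the 75 higher ones. Slc5a2, kept from overlapping by the sorting itself, is counted in the 24 and the 276. With quantile normalization the counts were 369 lower and 36 higher. The array cadmium 6 weeks replicate 2 narrowed the lists most: without it 468 genes were lower and 155 higher. Without saline 1 day replicate 2, 122 were higher. A set with 1 array fewer overlaps less often by construction. Overall signal was alike in both sets, with medians over all probe sets of 4.07 to 4.22 (low) and 4.03 to 4.19 (high).

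Transport genes of the convoluted tubule followed Slc5a2 most strongly. Of 30 other measured genes of a list of convoluted tubule markers, 12 were lower without overlap, against 1.25% of all genes, and 0 higher (0.34% of all genes). Within groups 24 were lower and 6 higher, with a median of -1.05, while over all genes 10592 were lower and 11492 higher. The list's mean level was 13.51 to 14.81 in the low arrays and 15.22 to 15.75 in the high ones, so the sets did not overlap. Over the 18 arrays, after taking out group means, it followed Slc5a2 with r = 0.94.

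Slc5a12, the lactate carrier of the brush border, differed most. It measured 7.45 at the lowest, 11.27 at the median and 13.76 at the highest in the low arrays, and 15.78, 16.35 and 18.03 in the high ones. The within-group difference was -5.32 ± 1.76 (SD over 4 groups), beyond that of Slc5a2 itself at -3.94 ± 1.10. The smallest gap, -2.70, was in cadmium at 6 weeks and the widest, -6.47, in cadmium at 1 day. Cadmium at 6 weeks had the smallest gap in 54 of the 57 list members and named genes that were lower without overlap, and for Slc5a2 itself (-2.54). Slc2a2, which passes glucose out of the cell on the blood side, overlapped between the sets (7.07 to 10.73 against 10.27 to 12.32) and stood -2.45 ± 1.56 apart.

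Carriers of neutral and basic amino acids made a compact group. Slc6a19, the brush border carrier of neutral amino acids, measured 7.08, 9.76 and 11.60 (lowest, median, highest) in the low arrays and 12.53 at the lowest and 12.75 at the median in the high ones, -3.38 ± 1.61 within groups. The exit carriers Slc7a8 and Slc7a7 were -3.12 ± 1.56 and -3.08 ± 1.04 apart, and Slc7a9 was -1.50 ± 0.81 apart. None of these 4 overlapped between the sets. Cltrn measured 14.42 to 16.15 against 16.57 to 17.57, also without overlap. Slc3a1, the partner chain of Slc7a9, lay at the end of the scale, at 19.79 to 19.93, on every array except cadmium 12 weeks replicate 1 (19.29), and the end of the scale may hide differences.

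Phosphate, bicarbonate and organic anion carriers lay on the same side. The phosphate carrier Slc34a3 measured 6.54, 8.79 and 9.85 in the low arrays and 10.45, 11.49 and 12.47 in the high ones, -2.73 ± 1.37 within groups. Slc34a1, the main phosphate carrier, was -0.37 ± 0.36 apart and without overlap, although at 18.81 to 19.79 it was near the end of the scale. Slc4a4, which returns bicarbonate to the blood, measured 11.12 to 15.17 against 16.22 to 17.22, -2.94 ± 1.39 apart. The organic anion carrier Slc22a8 was -2.89 ± 1.17 apart without overlap. Its relative Slc22a6 (-1.31 ± 1.06) overlapped by a small margin, with 15.66 as the highest low array and 15.54 as the lowest high one. The sodium-proton exchanger Slc9a3 overlapped widely and was -0.47 ± 0.68 apart.

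Genes for the uptake of filtered protein differed less. Dab2, the adaptor that brings the receptors megalin and cubilin into the cell, measured 15.23, 15.83 and 16.26 in the low arrays and 16.62, 17.14 and 17.33 in the high ones. Cubn (cubilin) was -1.20 ± 0.70 apart and Lrp2 (megalin) -0.23 ± 0.15, each lower in 4 of 4 groups. Both overlapped between the sets. Gpx3, the plasma glutathione peroxidase made in the proximal tubule, was -1.13 ± 0.59 apart without overlap. Gatm, which starts creatine synthesis, was -1.44 ± 0.99 apart and overlapped narrowly, with 17.98 as the highest low array and 17.97 as the lowest high one.

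The 6 listed genes that lay on the other side were Slc22a12 (0.64 ± 1.24), the urate carrier, Slc22a2 (0.40 ± 0.53), Aqp1 (0.32 ± 0.14), Slc17a3 (0.26 ± 1.05), Slc17a1 (0.23 ± 1.59) and Miox (0.12 ± 0.29). All overlapped between the sets. Aqp1, the water channel, was higher in 4 of 4 groups, and it is made along the whole proximal tubule and in the descending thin limb. Slc22a2 lay near the end of the scale on most arrays. With quantile normalization 1 of these 6 changed sides.

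The relation to Slc5a2 was also read over all arrays and among the high ones. After group means were taken out, Slc6a19 followed Slc5a2 over the 18 arrays with Pearson's r = 0.99 and Spearman's rho = 0.98, and r = 0.98 without the 2 arrays farthest from the median. Slc4a4 gave r = 0.99 (rho 0.97, 0.97 without those arrays) and Slc5a12 r = 0.98 (0.97, 0.97). Among the 9 high arrays alone Slc6a19 still followed Slc5a2 (r = 0.95), as did Slc7a7, Slc22a8 and Slc7a9 (r = 0.91 each). Without the 2 farthest of those 9, r was 0.77 for both Slc6a19 and Slc7a7, 0.53 for Slc22a8 and 0.49 for Slc7a9. Slc5a12 gave r = 0.84 there, but 0.19 without the 2 farthest arrays, so its relation among high arrays rested on those. Nox4 went from 0.81 to 0.08 in the same way, and Fam151a, among the genes most like Slc5a2 over all arrays, gave 0.39 and -0.17. These correlations describe arrays that share 1 RNA each, and genes on an array are not independent.

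**Figure D2:**
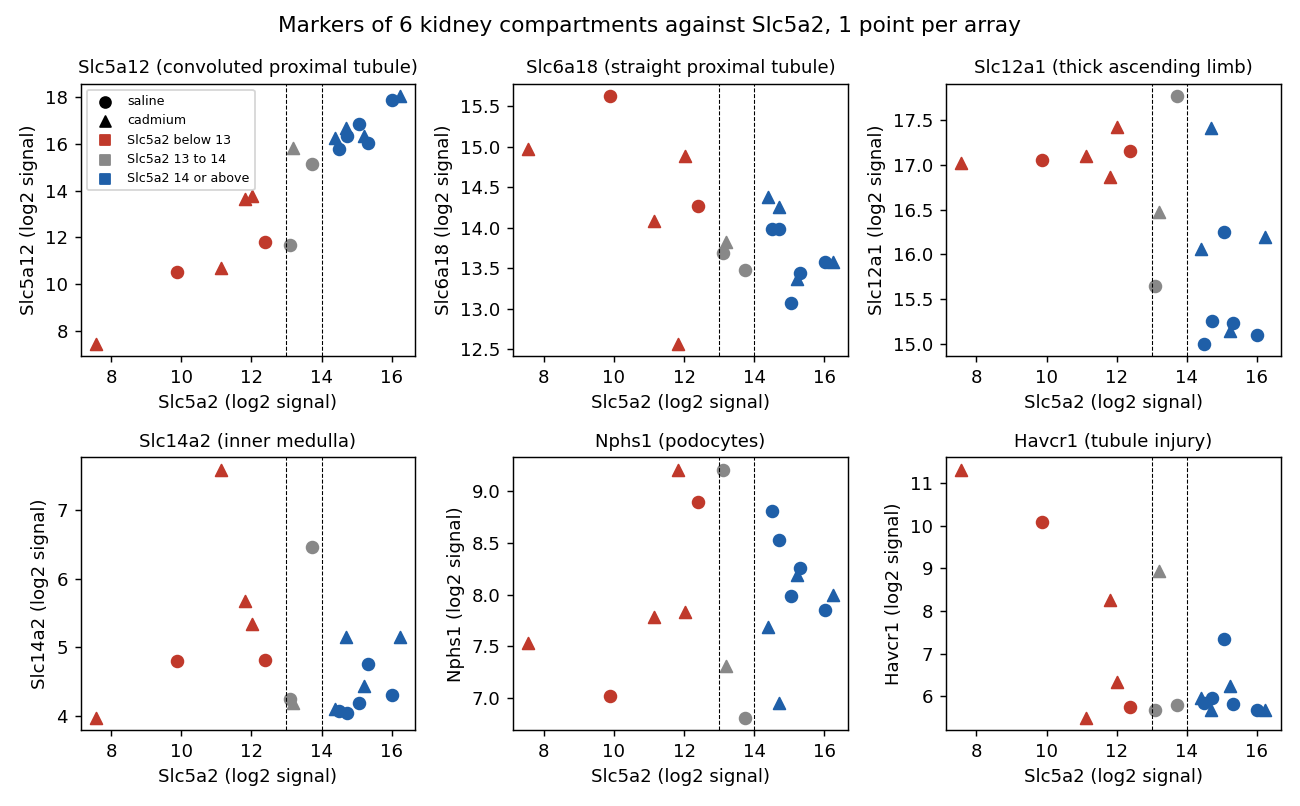
Log2 signal of 6 marker genes (vertical axes) against Slc5a2 (horizontal axes), 1 point per array, circles for saline and triangles for cadmium, colours for the sets and dashed lines at 13 and 14. Slc5a12 runs with Slc5a2 from 7.45 to 18.03, Slc12a1 sits at 16.86 or above on all low arrays, and Nphs1 shows no run.

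The 8 genes most like Slc5a2 by this correlation, among 12999 with a proper symbol and a mean above background, were Slc6a19, Slc4a4, Slc5a12, Nox4, Epb41l3, Fam151a, Kcnj15 and Ctsa, all with r between 0.98 and 0.99. Nox4, the oxidase of kidney tubule that makes hydrogen peroxide, measured 11.84, 13.13 and 14.74 in the low arrays and 15.69, 15.93 and 16.84 in the high ones, -3.17 ± 0.93 within groups. Fam151a, a gene of the proximal tubule, was -3.51 ± 1.40 apart, and Epb41l3, a membrane skeleton protein, -3.04 ± 1.18. The potassium channel Kcnj15 was -2.18 ± 1.08 apart. Further large differences were in Igfbp3, which binds insulin-like growth factors (6.50 to 9.48 against 10.20 to 12.18, -3.46 ± 1.34), and Spp2, a secreted phosphoprotein (-3.10 ± 1.52). Spink1l, a relative of the trypsin inhibitor Spink1, was -2.99 ± 1.40 apart, and probes of these similar genes may share signal. Beside Slc5a2, the 10 largest were those of Slc5a12, Fam151a, Igfbp3, Slc6a19, Nox4, Slc7a8, Spp2, Slc7a7, Epb41l3 and Spink1l.

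Metabolic genes of the proximal tubule were lower as well. Of 16 measured members of that list, 5 were lower without overlap (1.25% of all genes) and 16 lower within groups (10592 of all 22084 genes), with a median of -0.62. Ass1, which makes argininosuccinate for arginine synthesis, measured 14.65, 14.93 and 16.12 in the low arrays and 16.28, 16.51 and 16.74 in the high ones, -1.50 ± 0.66 within groups. The others were Glyatl2, a glycine acyltransferase (-1.86 ± 0.66), Hpd of tyrosine breakdown (-1.41 ± 0.56), Fbp1 of glucose synthesis (-0.78 ± 0.54) and Dao, which oxidizes D-amino acids (-0.63 ± 0.28). G6pc1, the last step of glucose release, overlapped narrowly (9.69 to 12.83 against 12.79 to 14.66) and was -1.98 ± 1.07 apart. Hao2 was -0.05 apart.

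Beyond the lists, several pathways had more than 1 member among the 276 lower genes. They are named after their values were seen and give no evidence about the pathways. In serine synthesis Phgdh, Psat1 and Psph, its 3 enzymes in order, were -1.76 ± 0.72, -1.54 ± 0.63 and -1.77 ± 0.53 apart, and Shmt2, which turns serine to glycine in mitochondria, -1.34 ± 0.53. Phgdh measured at most 6.37 in the low arrays and at least 6.96 in the high ones. Of lysosomal enzymes, Ctsa, Ctsh, Ctsb, Lgmn, Glb1 and Aga were lower, from -1.42 ± 0.78 (Ctsa) to -0.41 ± 0.27 (Aga). Of the citric acid cycle, Idh3b, Idh3g, Sucla2, Suclg1 and Suclg2 were -0.57 to -0.68 apart, and pyruvate carboxylase (Pc) -1.24 ± 0.74. Further carriers were the peptide carrier Slc15a1 (-2.92 ± 1.26), the sulfate carrier Slc13a1 (-1.93 ± 0.50), the creatine carrier Slc6a8 (-1.78 ± 1.09) and the carnitine carrier Slc22a5 (-1.44 ± 0.99). The angiotensin receptor Agtr1a was -0.92 ± 0.36 apart.

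Genes of the straight proximal tubule did not follow Slc5a2 downwards. None of 10 was lower or higher without overlap, which is near the background (1.25% and 0.34% of all genes). Within groups 6 were higher, beside 11492 of all 22084 genes, with a median of 0.37 against 0.01 over all genes. Slc22a24, an organic anion carrier, measured 7.67, 12.15 and 12.58 in the low arrays and 8.64, 9.80 and 12.04 in the high ones, and was higher in 4 of 4 groups (1.84 ± 1.08). Its lowest value of all stood in a low array, cadmium 12 weeks replicate 1. Slc6a18 (1.00 ± 0.74) and Slc7a13 (0.64 ± 0.63), amino acid carriers of that part, and Ggt1 (0.63 ± 0.52), which splits glutathione, were also higher in 4 of 4 groups. Acsm3, Slc1a1, Cyp7b1 and Aqp7 were lower, and Acsm3 ranged from -1.81 to 2.58 between groups.

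**Figure D3:**
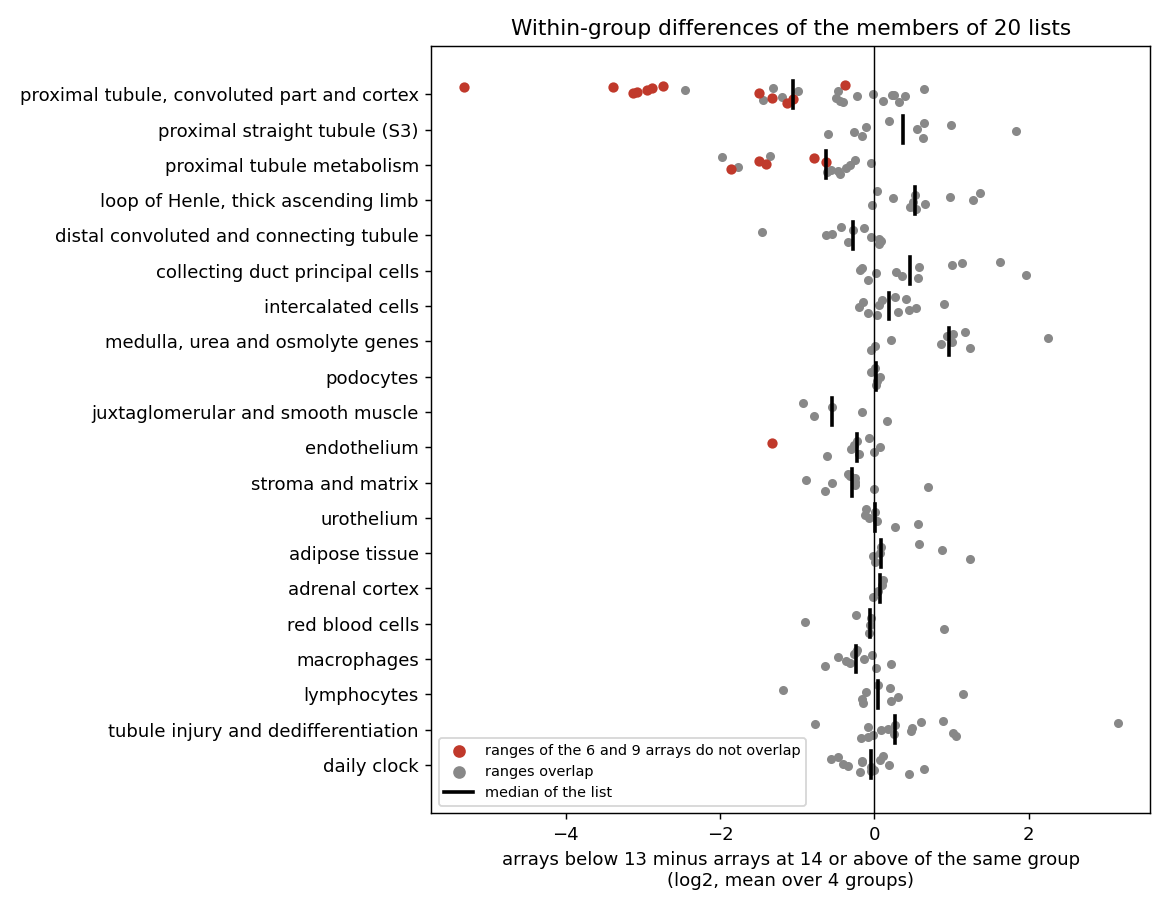
Within-group difference (horizontal axis, log2, low minus high arrays averaged over 4 groups) of each measured member of 20 lists (rows), red where the 6 and 9 arrays do not overlap, with the list's median as a bar. The convoluted tubule list has its median at -1.05 and 12 red points, while the medulla list has its median at 0.97 and none.

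Loop, collecting duct and medulla genes lay on the higher side in the low arrays, without a member free of overlap. Over all genes 0.34% were higher without overlap, so a count of 0 is near the background, and 11492 of 22084 were higher within groups. Of 11 thick ascending limb genes 10 were higher, with a median of 0.52. Slc12a1, the sodium-potassium-chloride carrier of that segment, measured 16.86, 17.08 and 17.43 in the low arrays and 15.00, 15.26 and 17.41 in the high ones, 1.37 ± 0.56 within groups. Cadmium 6 weeks replicate 1, at 17.41, was the high array that overlapped. Cldn19, a tight junction gene of the limb, was 1.27 ± 0.54 apart. Of 12 principal cell genes 9 were higher (median 0.46), led by Fxyd4 (1.97 ± 2.01) and the water channel Aqp2 (15.69 to 18.48 against 14.57 to 16.43, 1.63 ± 0.54). Of 12 intercalated cell genes 9 were higher, with a median of 0.19. After group means were taken out, the list levels gave r to Slc5a2 of -0.63 (thick ascending limb), -0.32 (principal cells) and 0.09 (intercalated cells).

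Urea and osmolyte genes of the medulla had the highest median of the lists, 0.97. Of 10 measured members 9 were higher (11492 of all 22084 genes) and 7 of them in 4 of 4 groups (2268 of all genes). Slc5a3, the inositol carrier, measured 10.98, 11.57 and 13.54 in the low arrays and 8.98, 9.72 and 12.65 in the high ones (2.25 ± 1.94). Nfat5, the factor that switches on osmolyte genes, was 1.01 ± 0.65 apart, Ptgs1 1.24 ± 0.85, and the urea carriers Slc14a2 and Slc14a1 1.17 ± 1.08 and 1.02 ± 0.77. The array cadmium 1 day replicate 3 stood highest, with Slc14a2 at 7.58 and the aldose reductase Akr1b1 at 11.60, against at most 5.67 and 8.52 on the other low arrays. With quantile normalization or median centring 8 of 10 were higher.

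Genes of other cortical cells differed less between the sets. Podocyte genes, which belong to the glomeruli of the cortex, had a median of 0.02, with 5 of 8 measured and 0 free of overlap (1.59% of all genes). Nphs1 (nephrin) measured 7.02, 7.81 and 9.20 in the low arrays and 6.96, 7.99 and 8.80 in the high ones, and its difference of 0.00 ± 0.99 changed sign in 4 alternatives. The median of the 5 turned to -0.00 with median centring. Distal convoluted tubule genes, also cortical, had a median of -0.28 with 8 of 11 lower, and Slc12a3, the thiazide-sensitive carrier, measured 14.10 to 17.59 against 15.34 to 17.27 (-0.44 ± 1.36). Calb1, Slc8a1 and Trpv5 of that list were further apart within groups than Slc12a3. Calb1 measured 11.71 to 17.57 in the low arrays and 14.39 to 18.10 in the high ones. In saline at 1 day its low array, at 17.57, stood above the high one, at 16.54. The portion of kidney sampled was not tested, and the sets are called by their Slc5a2 level.

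**Figure D4:**
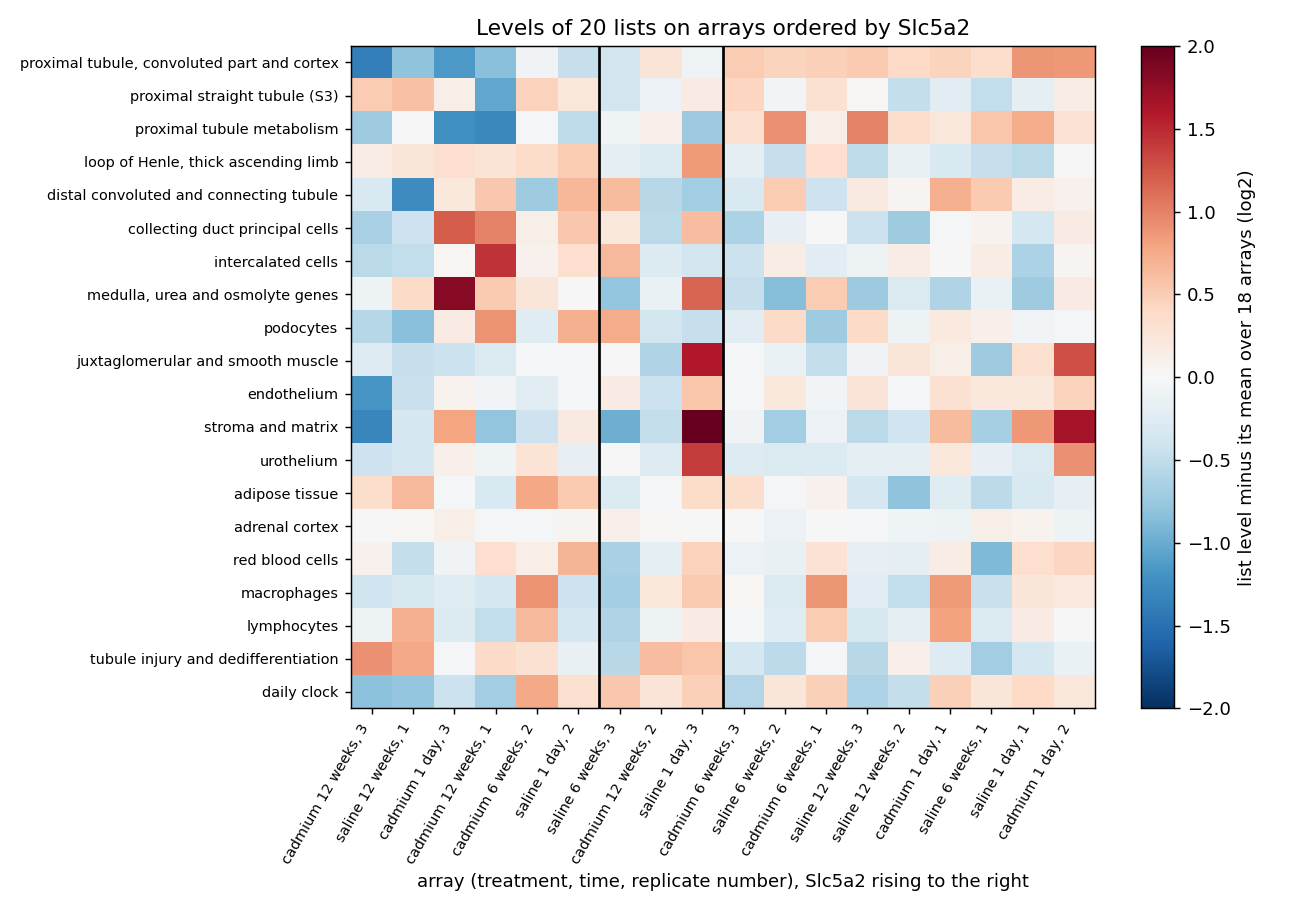
Level of 20 lists (rows) on 18 arrays ordered by Slc5a2 (columns), as the difference from each list's mean over arrays (log2, colour), lines setting off the low and high sets. The convoluted tubule list runs from 13.51 on the first array to 15.74 on the last, and the low arrays differ from each other in the medulla, stroma, intercalated cell and injury rows.

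Among the 75 higher genes, Stc1 (stanniocalcin, a hormone of calcium and phosphate balance) differed most. It measured 8.73, 9.73 and 12.01 in the low arrays and 7.05, 7.67 and 8.38 in the high ones, 2.39 ± 1.48 within groups. Cyfip2, of the actin-regulating WAVE complex, was 1.39 ± 0.63 apart and the hedgehog inhibitor Hhip 1.05 ± 0.35. Dst (dystonin, 1.07 ± 0.18) and Utrn (utrophin, 0.90 ± 0.42) link the cell skeleton to membranes and matrix, as does Plec, by a smaller margin (0.40 ± 0.09). Myh9 was 0.52 ± 0.13 apart, and Plec and Myh9 are named after their values were seen. Mtcl2, Tmbim1, Hoxb6, Myo3b and Acsl5 completed the 10, with 0.86 to 0.68. The genes that ran most against Slc5a2 over the 18 arrays were Gapvd1 (r = -0.94, rho = -0.94, -0.92 without 2 arrays), Etnk1, Zfhx3, Arhgef40, Myo9b, Nrf1, Srrt and Pcdhgb4, all at -0.91 or below. Their differences were small, 0.16 ± 0.09 for Gapvd1.

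The 6 low arrays were not alike in other respects. Of 16 genes of tubule injury 11 were higher within groups (11492 of all 22084 genes), with a median of 0.27 and 0 free of overlap (1.59% of all genes). Havcr1 (KIM-1), which injured proximal tubule puts on its surface, measured 11.32 in cadmium 12 weeks replicate 3, 10.08 in saline 12 weeks replicate 1 and 8.26 in cadmium 12 weeks replicate 1. On the other 3 low arrays it measured 5.49 to 6.32, and on the high arrays 5.67 to 7.35. The array between the limits from the same group, cadmium 12 weeks replicate 2, measured 8.94, so all 3 cadmium arrays of 12 weeks stood above the high arrays. Sox9, a factor of tubule repair, measured 12.25 in cadmium 12 weeks replicate 3, 13.49 in saline 12 weeks replicate 1 and 9.91 to 10.66 on the other low arrays. Spp1 (osteopontin) was higher on the low arrays of all 4 groups (a median of 15.09 against 11.26, 3.16 ± 0.78) but reached 15.54 on a high array, and it is made by distal tubule as well as by injured cells. The 2 arrays lowest in Slc5a2 were the 2 highest in Havcr1, 1 of them from saline. The part that injury plays in their Slc5a2 level was not tested.

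Lists of other cell types had medians between -0.55 and 0.09. Of 9 endothelial genes 8 were lower with a median of -0.22, beside 10592 of all 22084 genes lower. Kdr, the receptor for vascular endothelial growth factor, was lower without overlap, as were 1.25% of all genes (10.45, 11.42 and 12.00 against 12.20, 12.78 and 12.99, -1.32 ± 0.55). The endothelial list's level was 9.24 to 10.48 in the low arrays and 10.37 to 10.88 in the high ones. Stroma had 9 of 10 lower (median -0.28) and macrophages 9 of 11 (median -0.23), with levels that overlapped. Lymphocyte genes had a median of 0.05, although Cd79a of B cells reached 9.56 in saline 12 weeks replicate 1 against at most 5.81 on every other array. Smooth muscle genes had a median of -0.55, adipose genes 0.09, urothelial genes 0.01, red blood cell genes -0.06 and clock genes -0.05. Though the adipose median was small, 6 of 7 adipose genes were higher within groups, beside 11492 of all 22084 genes. After group means were taken out, the adipose level, from 4 genes above background, gave r = -0.78 to Slc5a2. The endothelial level gave r = 0.74, and the other lists of this paragraph gave -0.37 (adrenal) to 0.37 (macrophages). The adrenal markers lay at background, with a median of 0.07. The part of these cells in the differences above was not tested.

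The genes that did not overlap were set against the labelled contrasts, which the sorting did not use. Contrasts of time averaged over saline and cadmium. Of the 351, which include Slc5a2 itself, limma called 0 in each of the 6 contrasts, cadmium minus saline at each time and averaged, and 6 and 12 weeks minus 1 day. Of all genes it called 0% for cadmium at 1 day, 0.0408% at 6 weeks, 0.326% at 12 weeks and 0.0815% on average, 0.865% for 6 weeks minus 1 day and 2.21% for 12 weeks minus 1 day, so a count of 0 is near the background in most of them. At an unadjusted p under 0.05 there were 33 for cadmium at 12 weeks, where 9.03% of all genes had such a p, 16 for 12 weeks minus 1 day, where 3213 of all genes had one, and 0, 2, 5 and 3 for cadmium at 1 day, at 6 weeks and on average and for 6 weeks minus 1 day, against 433, 2182, 1390 and 2094 of all genes. A gene that varies with Slc5a2 within groups has a large error in these contrasts, which lowers its chance of a call. Of the 30 convoluted tubule genes, 1 passed in any contrast, Slc17a3, an organic anion carrier that did not follow Slc5a2. Averaged over both treatments, Slc17a3 rose by 1.41 from 1 day to 12 weeks (SE 0.34, limma adjusted p = 0.044). Of all genes 0.987% were called higher there, and 9 of 26 alternatives kept the call of Slc17a3. Its mean went from 14.62 to 17.12 with cadmium and from 14.55 to 14.86 with saline. The list's median difference for cadmium at 12 weeks was -0.61, against 0.01 over all genes, with 0 of 30 called and 2 at an unadjusted p under 0.05. As 2 of the 3 arrays of cadmium at 12 weeks were low and none was high, treatment and the Slc5a2 level cannot be told apart there.

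Taking the Slc5a2 level into account changed how many genes were called. For cadmium at 12 weeks 72 genes passed on all 18 arrays (0.326%), of which 64 were higher (0.29%) and 8 lower (0.0362%). The count was 37 without the 6 low arrays, of which 24 were among the 72, and 92 with Slc5a2 as a covariate, of which 57 were. For cadmium at 6 weeks 9 passed (0.0408%), 8 higher (0.0362%) and 1 lower (0.00453%), against 23 (7 shared) and 9 (7 shared). For the average over times 18 passed (0.0815%), against 27 (11 shared) and 28 (16 shared), and at 1 day 0 in all 3 (433 at an unadjusted p under 0.05 on all arrays). For 12 weeks minus 1 day 488 passed (2.21%), 218 higher (0.987%) and 270 lower (1.22%), against 115 (83 shared) and 472 (319 shared). For 6 weeks minus 1 day the counts were 191 (0.865%), of which 19 were higher (0.086%) and 172 lower (0.779%), then 184 (107 shared) and 226 (186 shared). Without the low arrays cadmium at 12 weeks is a single array, which is assumed to vary like the other groups, and leaving out arrays changes the error of every contrast.

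**Figure D5:**
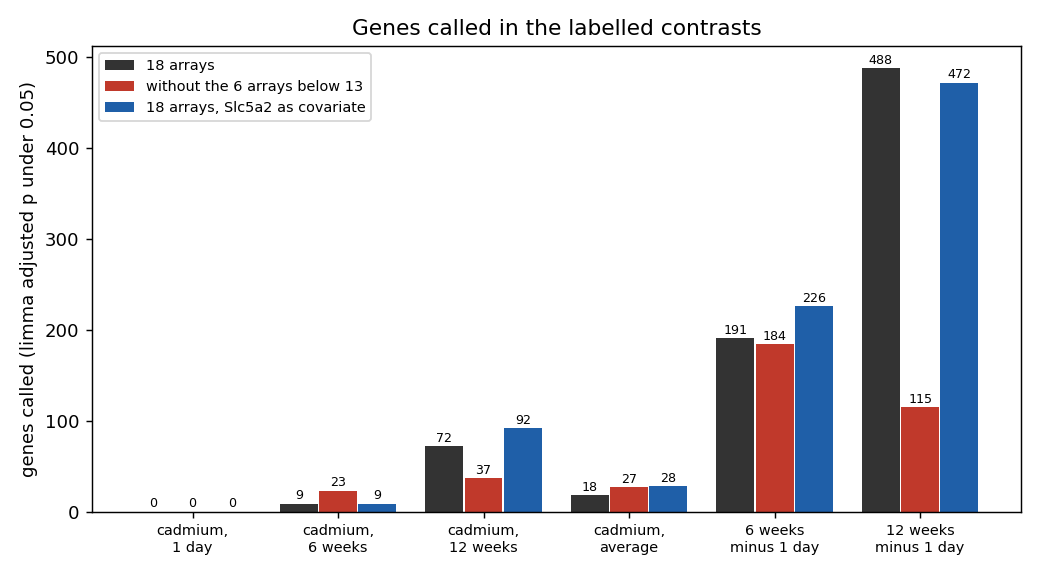
Genes called by limma at an adjusted p under 0.05 (vertical axis) in 6 labelled contrasts (horizontal axis), on all 18 arrays, without the 6 low arrays and with Slc5a2 as a covariate. The count for 12 weeks minus 1 day goes from 488 to 115 without the low arrays, and that for cadmium at 12 weeks from 72 to 37.

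Hmox1, which breaks down heme and responds to metals, differed with treatment at 12 weeks in low and other arrays alike. With cadmium at 12 weeks it measured 15.74 on the array between the limits and 13.35 and 12.60 on the 2 low arrays, against a mean of 4.85 ± 0.18 (SD, n = 3) with saline, where the low array had 4.91. Its rise of 9.04 (SE 0.55, limma adjusted p = 2.28e-06) was 10.91 without the low arrays and 9.44 with Slc5a2 as a covariate. Within groups the low arrays differed by -0.31 ± 0.61. On all 18 arrays Hmox1 rose by 2.89 at 6 weeks (SE 0.55, limma adjusted p = 0.0953) and changed by -0.04 at 1 day (SE 0.55). Limma called neither on those arrays. With Slc5a2 as a covariate the 6-week rise was 3.00 (SE 0.49, limma adjusted p = 0.0507), just short of a call. Without the low arrays it was 3.29, given by size only because that fit leaves 1 array of cadmium at 12 weeks. Averaged over both treatments, Havcr1 rose from 1 day to 12 weeks by 2.89 (SE 0.58, limma adjusted p = 0.0187), with the 2 lowest arrays in Slc5a2 carrying its highest values. With cadmium its mean went from 5.80 to 9.51 ± 1.61 (SD, n = 3). With saline it went from 5.74 to 7.80 ± 2.10, so the arrays of saline at 12 weeks differed widely. Of the stroma genes 7 of 10 fell from 1 day to 12 weeks, among them Col1a1, which fell by 2.85 on the log2 scale (SE 0.35, limma adjusted p = 9.74e-04), against 1.22% of all genes called lower there. Of the 7, Col1a1, Col1a2 and Col3a1 kept the call in 26 of 26 alternatives, Tnc in 25 and Fn1 in 21, but Pdgfrb in 7 of 26 and Lum in 4 of 25.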

How the data were processed

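The authors hybridized biotin-labelled kidney RNA to Affymetrix arrays, per the labels' protocols. Each deposited value is a probe set's log2 signal, and the summarization and normalization are not given in the sources used here. The table held 70570 probe sets, of which 23437 named 1 gene. The brightest probe set stood for a gene, which gave 22084 genes. The background level of 4.22 is the value that 95% of 1276 smell receptor genes (odorant, vomeronasal) fall below, and 13985 genes had higher means. Symbols came from the platform annotation of the series and were set against RefSeq (GRCr8), where 2 listed genes carried newer symbols (Slc22a24, Glyatl2).

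Group means of all 18 arrays were fitted in limma 3.58.1 (R 4.3.3), two-sided, with Benjamini-Hochberg adjustment over all genes within a contrast and a threshold of 0.05. There were 12 residual and 2.45 prior degrees of freedom. The fit was tested on simulated data. P-values measure the spread between the labelled biological replicates. Figures were drawn with matplotlib 3.10.9.

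The members and gene lists were chosen with earlier results of these data known. Genes named were list members, the 10 largest differences without overlap in each direction, the 8 most and 8 least correlated with Slc5a2, and those said to be named after their values were seen. Alternatives were the arrays used, Slc5a2 as a covariate, replicate number as a block, 2 scalings, a filter on dim genes, array weights, the probe set rule, other limits for Slc5a2 and leaving out arrays.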

Additional observations from a re-analysis of the deposited data

Results flagged for a closer look

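The change of Hmox1 with cadmium differed between times, by the test of the difference itself. It was 9.08 larger at 12 weeks than at 1 day (SE 0.78, limma adjusted p = 2.29e-04) and 6.15 larger than at 6 weeks (SE 0.78, limma adjusted p = 0.0102). The 3 cadmium arrays of 12 weeks measured 12.60, 13.35 and 15.74, and 2 of them were low in Slc5a2.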

How the results depend on the processing

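Genes lower and higher without overlap numbered 151 and 55 with arrays below 12 set against all others, and 21 and 1 with the 10 lowest arrays set against the other 8. With quantile normalization 36 were higher, and leaving out 1 low array gave 290 to 468 lower and 103 to 155 higher. A split by the mean of the other convoluted tubule genes shared 5 of 6 low and 9 of 9 high arrays and gave 356 and 95. Calls for cadmium at 6 weeks numbered 9, against 23 without the low arrays, 500 with array weights and 2 (without saline 6 weeks replicate 2, or cadmium 6 weeks replicate 1) to 32 (without cadmium 6 weeks replicate 3). Of the 18 arrays 12 moved this small count by over 1.5 times when left out. For cadmium at 12 weeks 72 became 37 without the low arrays, 127 with array weights and 33 (without saline 12 weeks replicate 3) to 108 (without cadmium 12 weeks replicate 3), with 35, 39 and 44 without cadmium 12 weeks replicates 2 and 1 and saline 12 weeks replicate 2. For the average 18 became 28 with the covariate, 59 with array weights and 6 (without saline 6 weeks replicate 3) to 30 (without cadmium 12 weeks replicate 3), and 12 of 18 arrays moved it by over 1.5 times. For 6 weeks minus 1 day 191 became 333 with array weights and 106 (without cadmium 6 weeks replicate 3) to 229, moved so by 6 arrays, and for 12 weeks minus 1 day 488 became 115 without the low arrays, 755 with array weights and 250 (without saline 12 weeks replicate 2) to 647, with 257, 260, 276 and 310 without cadmium 1 day replicate 2, saline 1 day replicate 3, cadmium 1 day replicate 1 and cadmium 12 weeks replicate 3. At 1 day the count was 0 in every alternative run. The cause of these shifts was not tested.

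With replicate number as a block, calls were 0 at 1 day, 3 at 6 weeks, 52 at 12 weeks, 11 for the average, 139 for 6 weeks minus 1 day and 355 for 12 weeks minus 1 day. Deviations from group means correlated at -0.50 to 0.49 for the same number (3 of 9 over 0.1) and at -0.60 to 0.56 for different ones (6 of 18), so the numbers were not taken to pair animals. Within-group differences were rerun for 276 list members and named genes, which are not the 276 lower genes. Of these, 4 moved beyond the spread between groups, each with quantile normalization. Differences that were small beside that spread could still change sign, as Slc12a3 (-0.44) and Slc17a3 (0.26) did in 1 alternative each and Nphs1 (0.00) in 4. Hmox1 at 12 weeks, Havcr1 and Col1a1 kept their calls in 26 of 26 alternatives.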

Other observations

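The 3 arrays between the limits were not intermediate in every respect. Saline 1 day replicate 3 had the highest stroma level of all arrays, 11.64 against at most 10.66 on any other, and a medulla level of 8.84, second to the 9.49 of cadmium 1 day replicate 3. Saline 6 weeks replicate 3 had a podocyte level of 9.58, beside 9.73 in cadmium 12 weeks replicate 1 and 9.55 in saline 1 day replicate 2, both of which were low in Slc5a2. The intercalated cell level of cadmium 12 weeks replicate 1, at 12.08, was the highest of the arrays, with the intercalated cell factor Foxi1 at 11.78 against at most 10.11 elsewhere. The same array had the lowest level of straight tubule genes, 10.36, while cadmium 12 weeks replicate 3 and saline 12 weeks replicate 1 had 11.91 and 11.99, so the low arrays held both ends of that range.

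Genes higher without overlap were long. The median RefSeq span from gene start to end was 57349 bases for the 74 of them with a span, 27609 for the 274 lower ones and 21142 for all genes above background. Dbp, a clock gene whose level peaks daily, had a median of 8.91 in the low arrays and 11.75 in the high ones, but differed within groups by -0.16 ± 1.99.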
